A study of Homo sapiens with 2 samples.

Results

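The regions described here are the H3K4me3 peaks on human chromosome 8 in HEC-1-B, an established endometrial adenocarcinoma line, in wild-type cells and in cells in which ZNF143 was knocked out. Members were chosen by the sequence name of the peak, and chromosome 8 itself was selected on its low knockout signal in an earlier look at the same 2 lists. Every difference between the genotypes on this chromosome is therefore a description and carries no test. The wild-type list held 743 peaks on chromosome 8 among 19058 on the 22 autosomes and 20567 in all. The knockout list held 692 among 18909 on the autosomes and 20509 in all.

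Each genotype was represented by 1 chromatin immunoprecipitation sequencing (ChIP-seq) library, made with the same H3K4me3 antibody from cultures of the same line. The only labelled difference was the genotype, wild type or ZNF143KO. The labels used here do not say whether the knockout line was 1 clone. With 1 library per genotype no value below has a replicate check, and peaks are not replicates of a genotype.

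H3K4me3, trimethylation of lysine 4 on histone H3, is placed by methyltransferases of the COMPASS family and is concentrated at the starts of active genes and at CpG islands. ZNF143 is a zinc-finger protein that binds promoter DNA and takes part in transcription by RNA polymerases II and III. A peak in these lists is a stretch where sequenced fragments were piled up beyond a local background rate. The sources used here do not say whether that rate was taken from the immunoprecipitated library itself or from a control library. Peaks on 1 chromosome share its DNA content as well as their library, so a whole chromosome can be read as a unit along which the mark is sampled at many promoters.

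Signal on chromosome 8 was lower in the knockout than the autosomes as a whole would give, and it was lower along nearly the whole chromosome. The value compared was the −log10 q of a peak as the authors' list gives it, which grows with the number of fragments at the summit. Of the chromosome 8 peaks, 604 formed one-to-one pairs, in which each peak overlapped, by 1 bp or more, exactly 1 peak from the opposite list. The log2 ratio of each pair, knockout over wild type, was centred on the median of all 15888 autosomal pairs. On chromosome 8 the median centred ratio was −0.34, with quartiles of −0.54 and −0.14, which is 0.791 times the autosomal median on a linear scale. Over all autosomal pairs the quartiles were −0.26 and 0.22. Below 0 lay 498 of the 604 pairs (82.5%, exact Clopper-Pearson 95% interval 79.2 to 85.4%). Intervals on shares cover counting error only.

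Centring sets what "lower" means here. Before it, the knockout −log10 q was the higher one in 536 of the 604 pairs. The matching share of autosomal pairs was not worked out. The autosomal median ratio was 1.79, a shift of 0.84 on the log2 scale. The lowest local background rate in each list, taken as the rate of the whole genome, came to 1.40 fragments per base for wild type and to 3.25 for the knockout, 2.31 times as many. Chromosome 8 values are given relative to the autosomal shift throughout.

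Taking a centred log2 ratio of −0.5 as a lower pair, 177 of the 604 pairs on chromosome 8 were lower (29.3%, 95% interval 25.7 to 33.1%), against 13.8% of all autosomal pairs. At 0.5 or above lay 41 pairs (6.79%, 4.91 to 9.10%), against 11.1% of autosomal pairs. These shares describe the chromosome, which was picked for such values.

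Among the autosomes the chromosome 8 median was the lowest. Chromosome 9 came next at −0.28, and the other 21 autosomes had a middle value of 0.035 and a highest value of 0.22, on chromosome 13. Chromosome 7, of similar length, stood at −0.025. The pairs of chromosome 9 had quartiles of −0.49 and −0.06. With 1 library per genotype, no error of a chromosome median over replicate libraries can be given, and the order of these neighbours was not tested.

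**Figure D1:**
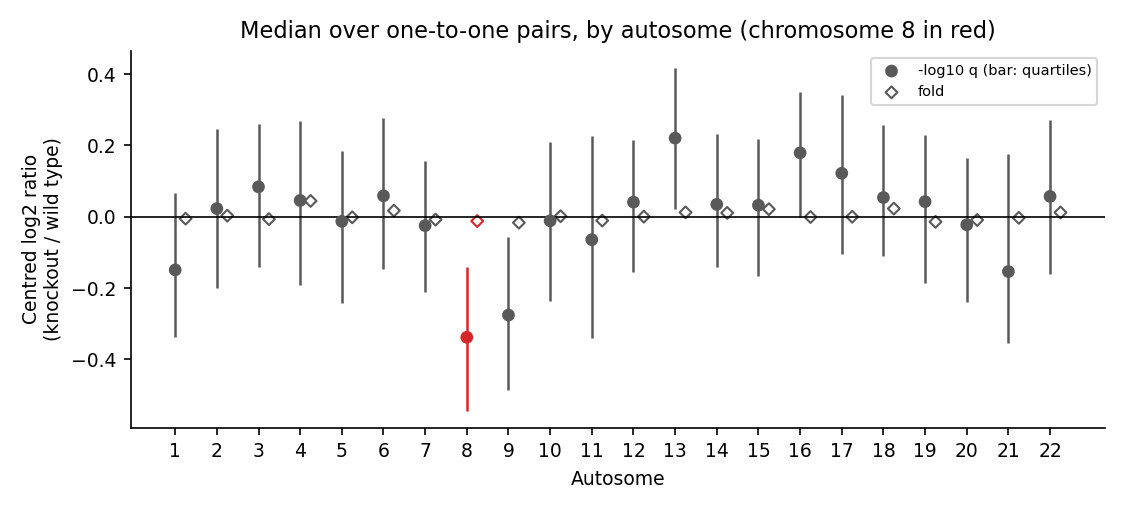
Median centred log2 ratio of knockout to wild-type −log10 q over one-to-one pairs (filled circles, bars from the lower to the upper quartile) and of the fold (open diamonds) for each of the 22 autosomes. The chromosome 8 circle lies at −0.34, below the other circles, while its fold diamond lies at −0.01 among the others.

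The other columns of the lists were set beside this value. The summit pileup, the whole number of fragments stacked at the summit worked out from the authors' columns of fold and p, had a median centred log2 ratio of −0.35 on chromosome 8. The local background rate recovered with it had one of −0.36. The fold, which is pileup plus 1 over rate plus 1, had a median of −0.01, with quartiles of −0.12 and 0.07. Pileup and local rate were thus lower together, and their quotient was not. On 19 of the other 21 autosomes the median fold ratio was above that of chromosome 8, and on the remaining pair it was below it, with a whole range of −0.02 to 0.04. For peaks whose local rate is set by their own fragments, a factor common to both cancels in the fold. Fewer copies of the DNA and less of the mark on each copy cannot be told apart from these columns.

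Pairs with the genome-wide background rate in both libraries have a denominator that does not depend on their surroundings. Chromosome 8 held 43 of them, with a median centred pileup ratio of −0.31. The same kind of pair had a median of −0.20 over all 1325 on the autosomes. In the 527 chromosome 8 pairs above that rate in both libraries, the median was −0.35 for pileup and −0.38 for the local rate.

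Peak widths on chromosome 8 were close to those of the autosomes. Wild-type peaks had a median width of 881 bp (autosomes 888 bp) and knockout peaks one of 998.5 bp (autosomes 1008 bp). The knockout peak was the wider one in 74.3% of chromosome 8 pairs and in 82.1% of autosomal pairs. Within pairs, which overlap by definition, summits lay a median of 17 bp apart on chromosome 8 and 18 bp on the autosomes.

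In covered length, the wild-type peaks of chromosome 8 amounted to 673.7 kb, 3.87% of the autosomal total, and the knockout peaks to 703.7 kb, 3.64%. By number the chromosome held 3.90% of autosomal wild-type and 3.66% of autosomal knockout peaks. The knockout to wild-type ratio of peak numbers, 0.931, was the lowest of the 22 autosomes, and the others ran from 0.961 to 1.09.

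Unshared peaks, those without an overlapping peak in the other list, were unevenly divided between the genotypes. In the wild-type list 77 of 743 chromosome 8 peaks were unshared (10.4%, 95% interval 8.27 to 12.8%), against 5.56% of autosomal wild-type peaks. In the knockout list 51 of 692 were unshared (7.37%, 5.54 to 9.58%), against 9.61% of autosomal knockout peaks. On the other autosomes the wild-type share ran from 3.04 to 9.43% and the knockout share from 7.04 to 16.3%. Chromosome 8 thus had the highest wild-type share of the autosomes and, after chromosome 9, the lowest knockout share.

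The unshared peaks were weak. Unshared wild-type peaks had a median −log10 q of 6.11, a median pileup of 12 fragments and a median width of 251 bp, and 63 of the 77 stood on the genome-wide background rate. Shared wild-type peaks had medians of 173, 256 fragments and 949.5 bp. Unshared knockout peaks had medians of 8.31, 25 fragments and 291 bp. Unshared peaks made up 3.56% of the covered wild-type and 2.64% of the covered knockout length.

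Sorting the autosomal peaks of each list by −log10 q into 4 equal strength groups shows where the unshared ones lie. In the weakest group of wild-type peaks, with a −log10 q up to 28.5, chromosome 8 had 191 peaks, and 75 of these were unshared (39.3%, 95% interval 32.3 to 46.6%), against 21.7% for all autosomes. In the next group 2 of 172 were unshared, against 0.46% for all autosomes. In the 2 strongest groups, 0 of 181 and 0 of 199 were, so that shares of up to 1.66% and 1.51% remain possible (3 counts over each total). All autosomes together gave 0.042% and 0.021% in these groups. In the knockout list the weakest group held 49 unshared peaks of 157 (31.2%, 24.1 to 39.1%), against 36.6% for all autosomes. Its 2 strongest groups held 0 of 229 and 0 of 104, with limits of 1.31% and 2.88%. Nearly all unshared peaks of the chromosome were thus among the weakest of their list, as on the autosomes as a whole.

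Paired peaks were lower in each strength group. With the autosomal pairs divided into 4 equal groups by wild-type −log10 q, from weakest to strongest, the chromosome 8 medians were −0.21, −0.31, −0.37 and −0.34. Over all autosomes the corresponding medians were −0.06, 0.03, 0.02 and −0.02. Below 0 lay 56.9, 76.3, 91.7 and 99.4% of the chromosome 8 pairs of each group. In the strongest group that was 162 of 163 pairs. The matching shares of autosomal pairs were not worked out, and the chromosome 8 medians did not fall steadily as this share rose. The weakest group held 17 of the pairs from 43 to 47 Mb described below. Without the pairs from 43 to 47 Mb its median was −0.48. Its share below 0 without those pairs was not worked out.

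The knockout list also ranked chromosome 8 lower. The strongest group of the wild-type list took in 199 of its 743 chromosome 8 peaks (26.8%), and that of the knockout list 104 of 692.

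**Figure D2:**
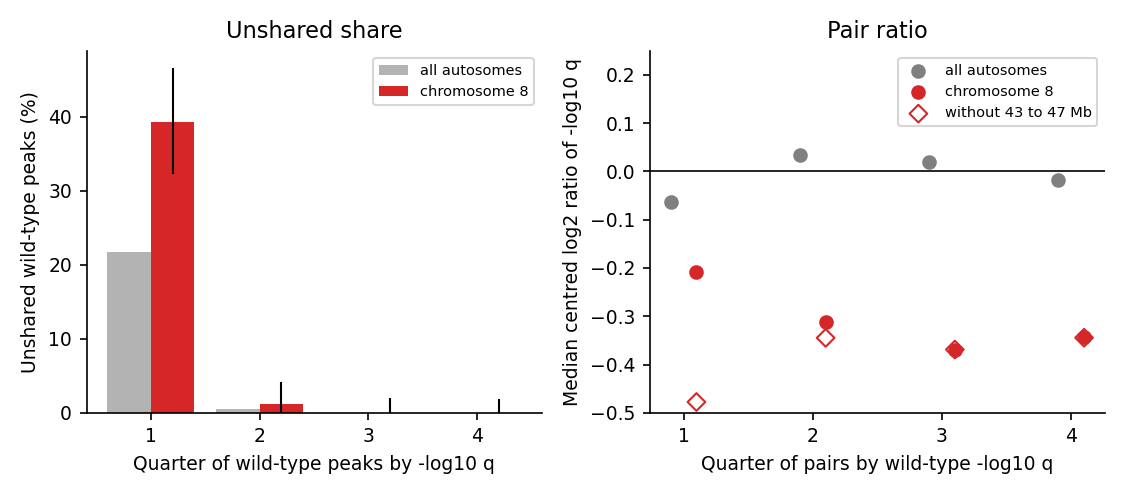
Left, percentage of wild-type peaks with no knockout peak by strength group of −log10 q (1 weakest, 4 strongest), for all autosomes and for chromosome 8 with exact 95% intervals. Right, median centred log2 ratio of −log10 q by strength group of pairs, with open diamonds for chromosome 8 without the pairs from 43 to 47 Mb. Chromosome 8 lies at 39.3% against 21.7% in the weakest group on the left, and below the autosomes in each group on the right.

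Position along the chromosome was examined next, first by arm. The hg19 sequence has a gap from 43.84 to 46.84 Mb in place of the centromere, whose satellite DNA is not in the assembly. The short arm held 268 wild-type and 254 knockout peaks, covering 229.9 and 245.8 kb. Its 220 pairs had a median centred ratio of −0.32, with quartiles of −0.52 and −0.05. The long arm held 475 and 438 peaks, covering 443.8 and 457.9 kb. Its 384 pairs had a median of −0.35, with quartiles of −0.56 and −0.17. Whether the arms differ was not tested. Unshared wild-type peaks made up 11.6% of the short arm and 9.68% of the long arm, and unshared knockout peaks 9.45% and 6.16%.

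The chromosome was then cut into 30 windows of 5 Mb. Of the 27 windows with at least 10 pairs, 26 had a median below 0, and 17 lay within 0.1 of the chromosome median. Counting the windows with fewer pairs, 29 of 30 were below 0. The exception was the window from 45 to 50 Mb, beside the centromere gap, at 0.31. The window on the other side of the gap, from 40 to 45 Mb, stood at −0.21 with 39 pairs. On chromosome 9, 24 of 24 such windows were below 0, and on chromosome 7, 19 of 30.

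From the short-arm end, the windows up to 10 Mb had medians of −0.29 and −0.32. The window from 10 to 15 Mb was the least low outside the centromere region at −0.18, with an upper quartile of 0.48, and 13 of its 22 pairs were below 0. It held 6 of the 41 pairs of the chromosome at 0.5 or above, 27.3% of its own pairs against 11.1% on the autosomes. The highest of these were weak in the wild-type list, with −log10 q values of 5.15 and 9.17 that became 28.6 and 50.1 in the knockout list. The next window, from 15 to 20 Mb, was the lowest of the short arm at −0.50, with 16 of 17 pairs below 0. From 20 to 40 Mb the 4 windows stood at −0.32, −0.28, −0.31 and −0.39.

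Between 50 and 110 Mb on the long arm the window medians held a narrow course. In order they were −0.43, −0.29, −0.43, −0.38, −0.34 and −0.45 up to 80 Mb. They went on with −0.34, −0.42, −0.38, −0.44, −0.34 and −0.32 up to 110 Mb. None of these 12 windows reached 0 or passed −0.5. Taken as one stretch, the 203 pairs from 47 to 110 Mb had a median of −0.39, with quartiles of −0.56 and −0.22.

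The lowest windows of the chromosome followed each other from 110 to 130 Mb, with medians of −0.58, −0.57, −0.52 and −0.59. In this stretch, which was picked after its values were seen, 53 of 54 pairs were below 0 and 32 (59.3%) were at −0.5 or lower, against 29.3% on the whole chromosome and 13.8% on the autosomes. The median was −0.55, with quartiles of −0.75 and −0.28, so its spread overlapped that of the stretch before it. Pileup gave −0.51 here and −0.37 from 47 to 110 Mb, and the local rate gave −0.44 and −0.40. The fold gave −0.06 and −0.02. Unshared peaks were 14 of 74 in the wild-type list (18.9%, autosomes 5.56%) and 1 of 58 in the knockout list (1.72%, autosomes 9.61%). Peaks of this stretch were also fewer in the knockout, as on the whole chromosome, and covered 66.0 kb against 69.1 kb. Over the whole chromosome the knockout peaks covered more. A lower knockout length was not particular to this stretch, and several windows elsewhere had one, such as that from 0 to 5 Mb (13.7 against 15.2 kb).

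Beyond 130 Mb the signal was less low. The windows from 130 to 145 Mb had medians of −0.23, −0.21 and −0.30, and the last, partial window had −0.25. The 117 pairs from 130 Mb to the end had a median of −0.28, with quartiles of −0.45 and −0.08. Most of these pairs lie near the end of the arm, where the last 2 windows held 58 and 45 pairs.

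**Figure D3:**
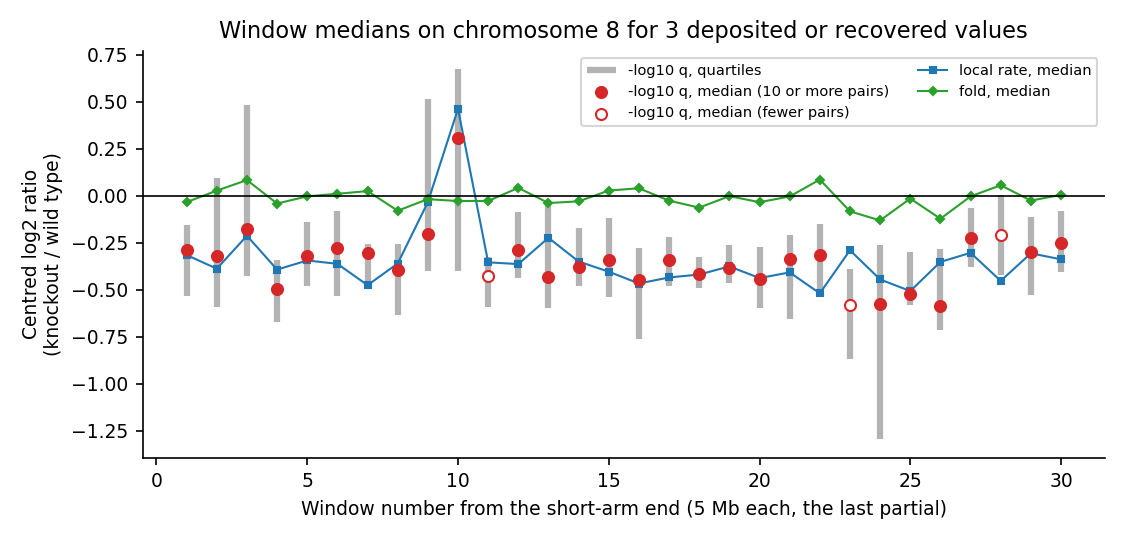
Centred log2 ratios by 5-Mb window in order from the short-arm end: −log10 q (red median, grey bar between quartiles), recovered local rate (blue squares) and fold (green diamonds). All red medians but that of window 10, at 0.31, lie below 0, and the green line stays near 0. The blue line is below 0 in the same windows but departs from the red medians in several. In window 23 it lies at −0.29 against −0.58.

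The pairs around the centromere gap went the other way. Between 43 and 47 Mb, bounds set after the values were seen, 25 of 27 pairs were above 0 and 15 (55.6%, autosomes 11.1%) were at 0.5 or above, out of 41 such pairs on the whole chromosome. Their median was 0.59, with quartiles of 0.39 and 0.78. On the short-arm side of the gap the 17 pairs had a median of 0.54, and on the long-arm side the 10 pairs had one of 0.64. Just outside these bounds the ratios were as on the rest of the chromosome, with −0.34 for the 22 pairs from 40 to 43 Mb and −0.41 for the 8 pairs from 47 to 50 Mb. The 27 pairs did not fill the 43 to 47 Mb stretch. They lay in short clusters, at 43092765 to 43097037, 43793270 to 43838740 and 46839803 to 46856380. Within each cluster the centred ratios of the local rate were close together, so these pairs are not independent of each other.

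These peaks differed from the other peaks of the chromosome in more than the ratio. The median width of the wild-type peaks was 256 bp, against 968 bp over all chromosome 8 pairs. Their folds were low, with medians of 4.00 (wild type) and 4.12 (knockout) against 12.0 and 11.4. The median local rate was 21.0 fragments per base for wild type, close to that of all pairs, and 58.5 for the knockout, above the 35.3 of all pairs. The centred ratio was 0.57 for pileup, 0.48 for the local rate and 0.02 for the fold, so here too pileup and local rate moved together. The part of the raised local rate in this result was not tested. How uniquely fragments can be placed in the sequence beside the gap was not examined.

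A group of 4 adjoining pairs from 43092765 to 43097037 (hg19, chromosome 8, wild-type bounds) held some of the highest ratios. The first went from a −log10 q of 357 to one of 893, which made it the strongest knockout peak of the chromosome. The others went from 99.3 to 445, from 16.3 to 73.6 and from 3.85 to 36.7. The fold of the first pair was 23.3 and 19.2, a centred ratio of −0.22, so by fold it was lower. The other pairs had centred fold ratios of 0.33, 0.25 and 0.52. All 4 had a local rate of about 14.7 fragments per base for wild type and about 51.9 for the knockout. No other pair lay between this group and the next 13 pairs, from 43793270 to 43838740, which reach almost to the gap.

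Without the 27 pairs from 43 to 47 Mb, the signal was lower in every window. The 26 windows with at least 10 pairs then ran from −0.59 to −0.18, and 496 of 577 pairs (86.0%) were below 0. The distance between the highest and the lowest window median fell from 0.89 to 0.41. With all pairs included, that distance was 0.15 to 1.19 on the other 21 autosomes, with a middle value of 0.47. Only chromosome 11 exceeded chromosome 8, and chromosome 2 was nearly equal to it at 0.888 against 0.894. The number of windows ran from 5 on chromosome 21 to 43 on chromosome 1, and the distance was not adjusted for it. The interquartile range of the window medians was 0.14 on chromosome 8, 0.12 on chromosome 9 and 0.10 on chromosome 7. A running median of 31 neighbouring pairs, with the same pairs left out, stayed between −0.56 and −0.20. The lower signal was thus spread along both arms, with smaller regional differences. The pairs from 43 to 47 Mb, on either side of the centromere gap, departed in the opposite direction.

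**Figure D4:**
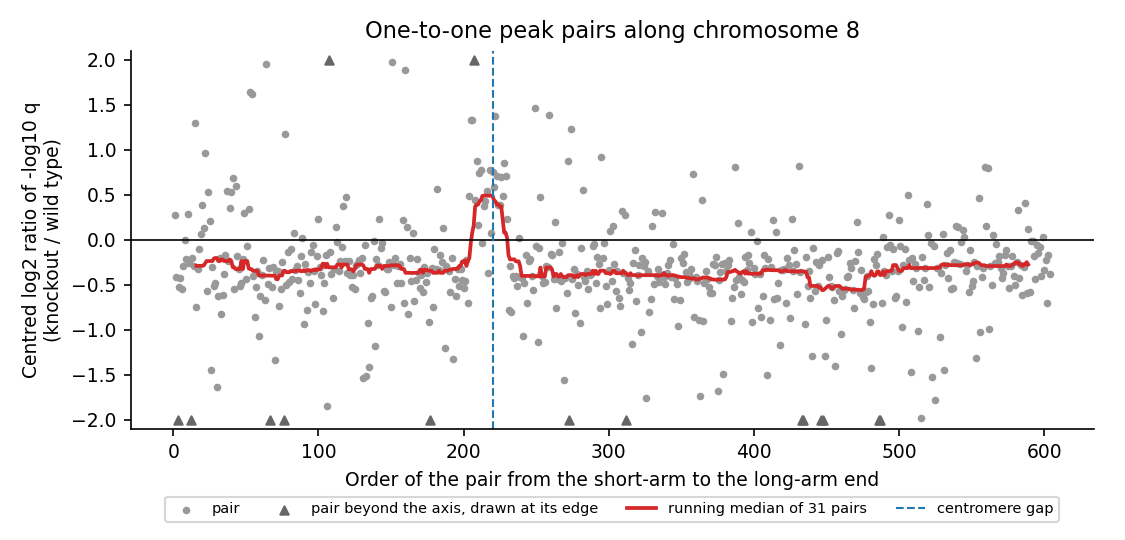
Centred log2 ratio of −log10 q for each of the 604 pairs in order along chromosome 8, with a running median of 31 pairs (red) and the centromere gap (dashed). The red line stays between −0.56 and −0.20 except around the gap, where it rises above 0 to 0.49.

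Peak numbers were uneven along the chromosome in both libraries alike. The window from 140 to 145 Mb held 66 peaks in each list, and the partial last window held 54 in each. The fewest were in the window from 135 to 140 Mb, with 7 wild-type and 4 knockout peaks. Covered length was highest from 140 to 145 Mb, at 55.0 kb in the wild-type and 58.9 kb in the knockout list, and lowest from 135 to 140 Mb, at 5.43 and 4.70 kb. The longest stretch free of peaks in both lists measured 3.46 Mb, from 110988094 to 114446925, which is longer than the 3.00 Mb without peaks at the gap.

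Unshared wild-type peaks were most numerous from 0 to 5 Mb and from 125 to 130 Mb, with 8 in each window, of 26 and 27 peaks. The same windows held 1 unshared knockout peak each, of 18 and 19. From 15 to 20 Mb there were 6 unshared wild-type peaks of 23. Unshared knockout peaks were most numerous from 20 to 25 Mb and from 140 to 145 Mb, with 6 in each, of 42 and 66. These counts stand beside shares of 10.4% (wild type) and 7.37% (knockout) on the whole chromosome and of 5.56% and 9.61% on the autosomes, so that 6 of 66 is close to the autosomal knockout share.

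**Figure D5:**
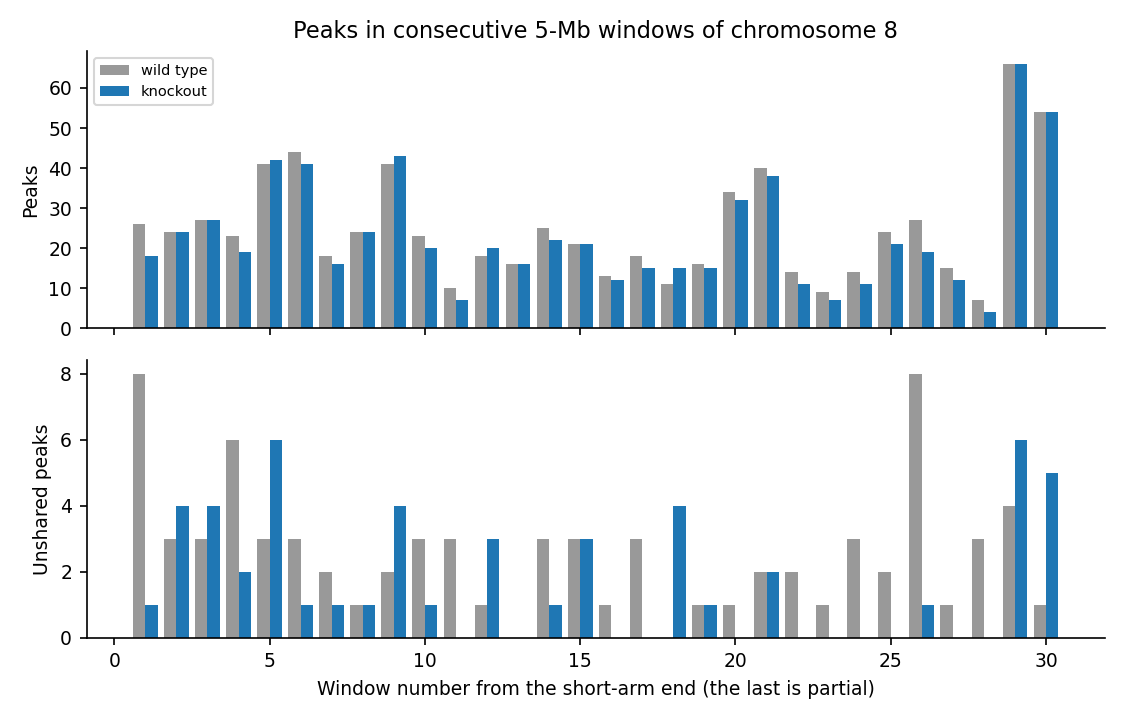
Number of peaks (upper panel) and of unshared peaks (lower panel) in consecutive 5-Mb windows of chromosome 8, wild type in grey and knockout in blue. Both lists peak at 66 in window 29, and unshared wild-type peaks reach 8 in windows 1 and 26.

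The strongest peaks were examined singly, with positions in hg19 counted from 1. In the wild-type list the highest −log10 q on the chromosome was 615, at 23145581 to 23146257, with a pileup of 583 fragments. The paired knockout peak had 836 and 832 fragments, a centred ratio of −0.39. The next wild-type peaks lay at 22525833 to 22526950 (610), 144690938 to 144691771 (588), 133787607 to 133788434 (568) and 82597909 to 82598565 (558). Their knockout partners had 784, 704, 797 and 754, and centred ratios of −0.48, −0.58, −0.35 and −0.40. Of these 5 regions, 4 were also among the 5 highest of the knockout list, in which the peak at 43092764 to 43093515 took the place of the remaining one. The 5 strongest wild-type peaks were thus lower, like the median pair. The strongest knockout peak, in the group of 4 adjoining pairs that begins at 43092765, had a centred ratio of 0.49.

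The broadest peaks showed it too. The widest peak of both lists began at 74205032 in the wild-type list and spanned 3288 bp there and 3258 bp in the knockout list. Its −log10 q was 164 and 198, a centred ratio of −0.57. Another broad peak, at 48649026 to 48651542, measured 2517 bp and 2457 bp, with a centred ratio of −0.40. Yet another, from 95906713 in the wild-type list, was 2415 bp wide in both lists and had a centred ratio of −0.59. The peak at 71313930 to 71316643, of 2714 bp, was among the 3 widest of the wild-type list and had no one-to-one partner.

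Single pairs departed further. Over all 604 pairs the ratios ran from −5.87 to 2.84, and both of these extreme pairs had a −log10 q under 20 in 1 list. The pairs named below are from the 515 with a −log10 q of at least 20 in both lists. Their lowest ratio, −4.46, was at 63950774 to 63951790, where the wild-type peak had a −log10 q of 247 and 255 fragments and the knockout peak 20.1 and 33. Its fold was 22.4 and 8.0, so this pair was lower by fold as well. It was followed by 75262420 to 75263237 at −2.29, with −log10 q values of 311 and 113, and by 95274054 to 95274844 at −1.73, with 59.5 and 32.0. The remaining ones were at 28244076 to 28244346 (−1.51) and at 103136087 to 103136840 (−1.50). Across the 5 the centred fold ratio ran from −1.44 to −0.27, a measure that rises and falls with the −log10 q by which they were picked.

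The highest ratio among them, 1.47, was at 55370428 to 55371361, where −log10 q was 36.3 and 179 and the pileup 52 and 294 fragments. Next came 43094764 to 43095237, in the group that begins at 43092765, at 1.33, and 2075070 to 2076152 at 1.3, with −log10 q values of 25.6 and 112. The pair at 63998281 to 63998911 had 39.0 and 164, a ratio of 1.23. It lies 46.5 kb from the pair of lowest ratio, so neighbouring peaks there moved in opposite directions. The last, at 7468866 to 7469090, had 24.8 and 86.6 and a ratio of 0.97.

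A few unshared peaks were strong for their kind. In the wild-type list, 4 had a −log10 q of at least 20. The highest was at 145047384 to 145048030, with 86.3 and a pileup of 202 fragments, followed by 21867826 to 21868370 with 38.7 and 41347697 to 41347882 with 21.7. The peak at 41347697 lies within 1 kb of a peak that was paired between the lists. In the knockout list there were 9, led by 17434324 to 17435478 with 122 and a pileup of 147 fragments, then 20161007 to 20161474 with 69.2 and 144911748 to 144911989 with 32.3. The last of these lies within 1 kb of a peak that was paired between the lists. Such peaks were not counted over all autosomes, and the knockout background rate was 2.31 times that of wild type. The counts of 4 and 9 are therefore not compared.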

How the data were processed

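The deposited files were 1 peak list per library in the 10-column narrowPeak layout. Bowtie2, MACS2, SAMtools 1.12, deepTools and the build hg19 are named in the submitters' processing notes, without settings. Whether a control library was used is not given in the sources used here. The deposited fold (column 7), −log10 p (column 8) and −log10 q (column 9) are the authors' own values, each relative to a background rate whose source library is not stated. The deposited score column is 10 times the −log10 q and was not used, and the deposited summit offset gave summit positions. No scaling between the lists is stated, so ratios were centred on the autosomal median.

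Pileups and local rates were recovered by solving fold and −log10 p for a whole-number pileup under a Poisson tail, with relative errors of at most 1.76e-05 (wild type) and 2.67e-05 (knockout). Recovery and pairing were checked on simulated data. Total read counts were not used here. Windows were assigned by summit position. A peak was unshared without an overlap of at least 1 bp. Peaks named singly were the 5 of highest −log10 q, the 3 widest and the 3 strongest unshared peaks of each list, and the 5 lowest and 5 highest pair ratios with −log10 q of at least 20 in both lists. Other single features, including the pairs beside the gap and the stretches along the long arm, were chosen after their values were seen. Members and rules were chosen with earlier results of these data known. Without an hg19 annotation no gene was assigned to a peak, so neither the ZNF143 locus nor cell type markers were checked. Values were computed with scipy 1.17.1, pandas 2.3.3 and numpy 2.4.6 in Python 3.11.15 and drawn with matplotlib 3.10.9.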

Additional observations from a re-analysis of the deposited data

Results flagged for a closer look

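Peaks were called on an unlocalized sequence assigned to chromosome 8 (gl000197), which no comparison above uses. The wild-type list held 1 peak there, at 15457 to 15621, with a −log10 q of 5.15 and a pileup of 11 fragments. The knockout list held 1 peak, at 15333 to 15646, with a −log10 q of 25.3 and a pileup of 38 fragments. It was noted because it lies outside the assembled chromosome, and there were no control samples to set it against.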

How the results depend on the processing

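No paired analysis was possible because 1 library stood for each genotype, and no replicate could be left out. Alternatives were listed with earlier results of these data known; leaving out the pairs from 43 to 47 Mb and scaling by the background rates were added after the data were seen. Peak numbers and covered lengths stayed within 1.5 times their values with peaks merged within 1 kb and with those under a −log10 q of 5 left out. The unshared share became 18.7% (wild type) and 12.7% (knockout) under a reciprocal overlap of 50%. Measured by fold, the median ratio became −0.012 on the chromosome, −0.0071 on the short arm and −0.017 on the long arm, the share at or below −0.5 became 4.97%, and the distance between window medians 0.22. With pileups scaled by the background rates, the medians became −0.67, −0.65 and −0.68 and the share 74.7%, while the autosomal median itself moved to −0.32. The share at or below −0.5 was 22.7% by pileup and 25.4% for pairs with a −log10 q of at least 20. With thresholds of −0.25 and −1 the share was 63.9% and 8.11%, where the autosomes gave 25.4% and 5.76%. Autosomal shares by fold, by pileup, scaled or not, and for the stronger pairs were not worked out. The chromosome 8 shares under those settings are therefore not read as particular to the chromosome. The distance between window medians, 0.89, became 0.54 for pairs with a −log10 q of at least 20. It became 0.54 with 10-Mb windows and 0.41 without the pairs from 43 to 47 Mb, both by construction. In the other direction, it became 1.21 with 2-Mb windows, 1.05 with windows shifted by 2.5 Mb and 0.95 by pileup. By −log10 p it was 0.85, and for pairs with a reciprocal overlap of at least 50% it was 0.77. The cause of the other changes was not tested. Depth limits the weak end: the lowest pileup called on chromosome 8 was 7 fragments (wild type) and 12 (knockout), so an unshared weak peak does not show that the mark is absent.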
